A study of Mus musculus with 9 samples.

Results

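Open chromatin was compared between lung endothelial cells of mature adult mice and of infant mice, with 3 libraries at each age, out of 9 libraries in the series. The other 3 libraries came from young adult mice; they took part in the model's estimate of spread and are given beside the results, but did not define any difference below. The cells were murine pulmonary endothelial cells sorted by fluorescence, and each library was made by ATAC-seq, in which a transposase inserts sequencing adapters into DNA that is not covered by nucleosomes. The infant libraries are those titled Inf and the mature adult libraries those titled mAdu; the sources used here give no strain, sex, age in days, sorting marker, allele or treatment. No label says whether the libraries are of separate animals or of pools, so that the spread behind each p-value is that between libraries and may be technical. According to its title, the study asks how enhancer chromatin differs between angiogenic endothelium, which still builds vessels, and quiescent endothelium. Each library is a list of peaks, the stretches called open, with positions only. A peak was counted once however often its row was repeated, and was given to the protein-coding gene whose body held its centre, or else to the gene whose end was nearest, up to 100 kb away.

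Endothelial cells line every vessel. In the young lung the capillary bed is still being enlarged by sprouting and by splitting of vessels, under the control of VEGF, Notch, Wnt and TGF-beta signals and of the basement membrane on which the cells lie. In the adult lung the same cells rarely divide and keep a barrier across which gas is exchanged. Enhancers are short regulatory stretches, often far from their gene, that are open where transcription factors bind, while promoters at the start of a gene are open in many cell types.

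The mature adult libraries held fewer peaks than the infant libraries, and the shortfall was smallest at gene ends. The infant libraries held 94646, 90043 and 88856 peaks and the mature adult libraries 59793, 64208 and 63105. The groups did not overlap, and the mature adult mean was 31.6% lower (exact permutation test over 20 splits, two-sided, p = 0.1, the smallest that 3 libraries against 3 can give). At gene ends, up to 1 kb away on either side, the infant libraries held 14468, 14412 and 14642 peaks and the mature adult libraries 12161, 12470 and 12389, a ratio of 0.851. The ratio was 0.674 at 1 to 10 kb from a gene end, 0.649 at 10 to 50 kb, 0.632 at 50 to 100 kb and 0.642 farther away (exact permutation p = 0.1 in each of the 5 ranges). So peaks at gene ends made up 19.8 ± 0.48% of the mature adult and 15.9 ± 0.60% of the infant peaks (SD, n = 3). With the 59793 widest peaks of every library these shares were 20.2 ± 0.0857% and 20.4 ± 0.0937%, with the sign of the difference turned (exact permutation p = 0.2). Sequencing depth is unknown for all libraries, so that more reads and more open chromatin cannot be told apart as sources of a longer list, and the lack of a peak does not show that a stretch was closed. Mature adult replicate 1 stood apart, with 2.87% of its peaks on chromosome X against 2.48% and 2.54% in the other mature adult libraries and 2.14% to 2.27% in the infant libraries. It also had 9020 peaks over 100 kb from a gene end, against 8024 and 7826 in replicates 2 and 3. Young adult replicate 3 was alike in both, with 2.82% on chromosome X and 10466 peaks over 100 kb away. The ages differed on chromosome X as well. The ratio of mature adult to infant mean peak number was 0.821 there, against 0.650 to 0.704 on the autosomes. On chromosome Y the infant libraries had 7, 7 and 0 peaks and the mature adult libraries none. Sex is not labelled, and a difference of sex between the ages was not tested.

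**Figure D1:**
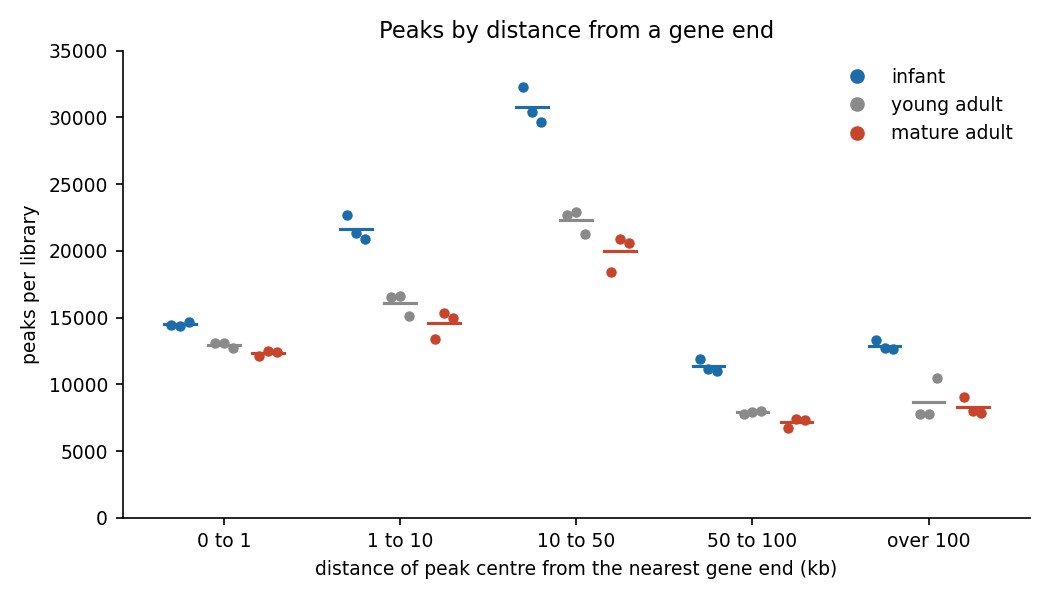
Peaks per library (vertical axis) by the distance of the peak's centre from the nearest gene end in kb (horizontal axis). Each point is 1 library and each short line the mean of 3; the mature adult points lie below the infant points in every range, and nearest to them, as a ratio, at 0 to 1 kb.

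Promoters were examined first, because the reference sequence of their window is known. A window ran from 250 bases before to 50 bases after an annotated start of transcription, and 21262 windows of 17491 genes were used. A window counted as open in a library when a peak overlapped it by at least 1 bp. It was open in 12456, 12331 and 12104 cases in the infant libraries and in 10779, 10969 and 10901 in the mature adult libraries, which did not overlap and were 11.5% lower in the mean (exact permutation p = 0.1). The young adult libraries lay between, at 11475, 11454 and 10857, with replicate 3 within the mature adult range. With the widest peaks alone the mature adult mean was 7.98% lower. Of all windows, 10517 were open in all 6 libraries, 849 (3.99%) in all 3 infant and no mature adult library, and 15 (0.0705%) in all 3 mature adult and no infant library.

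The infant-only windows belonged to 785 genes, which is 4.49% of the genes with a window. Among the gene lists used below, many were matrix, growth and signalling genes. The share was 7 of 12 genes for the markers of fibroblasts and mural cells (the smooth muscle cells and pericytes around vessels), among them Acta2, Cspg4, Des and Tbx18. For the collagens it was 5 of 12 genes, for the fetal growth genes 6 of 20 and for the Wnt pathway 6 of 23. The fetal growth genes with such a window included Igf2bp2 and Igf2bp3, which encode proteins that bind mRNA of the fetal growth factor Igf2, and Hmga2, a chromatin protein of growing tissues. Those of the Wnt pathway included Lef1, a transcription factor that acts with beta-catenin, Ror2, a receptor of Wnt5a, and the secreted inhibitors Dkk2 and Sfrp2. With the widest peaks alone 580 windows were infant-only, and 549 of the 849 windows kept the class. In the lists just given, the windows of Cspg4, Col11a1, Col5a3, Phlda2, Dkk2 and Wnt11 then left it. None of the 8 endothelial identity genes, 11 general capillary genes, 12 arterial genes or 20 early response genes with a window had an infant-only one. At a share of 4.49% of all genes, lists this short can hold none without being unlike other genes. Other endothelial lists held some: 3 of 13 lymphatic genes, 3 of 32 endothelial transcription factors and 1 of 15 aerocyte genes. These lists were chosen with results of these data known, so their shares are descriptions.

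The infant-only windows were rich in CG dinucleotides, with a median of 17 per window, against 22 in windows open in all 6 libraries, 13 in all windows and 3 in the mature adult-only windows. Windows open in none of the 6 libraries also had a median of 3. CG-rich promoters are the common kind in mammals. Infant-only windows held the core motif of ETS factors, the family of Erg and Fli1 (GGAAGT on either strand), in 17.2% of cases, against 29.4% of windows open in all 6 libraries and 24.8% of all windows. They held the GC box bound by Sp and Klf factors (GGGCGG on either strand) in 60.9% of cases, against 69.9% and 46.2%. The promoters of Igf2bp2 and Col1a2 are shown as examples that were open in 3 infant libraries and in none of the 6 adult libraries. Their 250 bases before the start of transcription are given 5′ to 3′ along the gene's strand, with CG dinucleotides in capitals (RefSeq, GRCm38.p6, the same build as mm10). The Igf2bp2 stretch is chr16:22163300-22163549 on the minus strand and holds 40 CG dinucleotides. The Col1a2 stretch is chr6:4505368-4505617 on the plus strand and holds 11.
Igf2bp2: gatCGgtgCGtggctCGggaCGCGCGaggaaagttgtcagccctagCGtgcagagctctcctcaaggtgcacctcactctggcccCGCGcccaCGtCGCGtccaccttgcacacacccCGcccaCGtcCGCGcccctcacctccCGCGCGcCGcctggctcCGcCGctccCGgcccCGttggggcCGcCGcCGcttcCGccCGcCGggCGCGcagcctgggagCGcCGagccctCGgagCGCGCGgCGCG
Col1a2: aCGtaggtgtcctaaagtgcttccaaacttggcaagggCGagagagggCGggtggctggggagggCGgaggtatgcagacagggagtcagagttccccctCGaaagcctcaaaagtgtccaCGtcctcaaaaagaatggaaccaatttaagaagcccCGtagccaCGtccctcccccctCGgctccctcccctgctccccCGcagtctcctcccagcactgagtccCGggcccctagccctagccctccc

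Igf2bp2 had 5, 7 and 7 peaks in the infant libraries, 1 in each young adult library and none in the mature adult libraries. Col1a2, the alpha 2 chain of the fibrillar collagen I, had 13, 14 and 14 infant, 4, 4 and 5 young adult and 2, 2 and 3 mature adult peaks. Both genes had fewer peaks in every mature adult than in every infant library, and the limma test of these numbers is given with their lists below.

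The 15 mature adult-only windows belonged to 13 genes. Several are known targets of interferon, the cytokine that alerts cells to infection: Isg15, a small protein that is attached to other proteins, and Ifi206, Ifi209 and Ifi211, sensors of nucleic acid. The last 3 are neighbouring members of a family of similar copies on chromosome 1, so their peaks are uncertain. The others were Phyhd1, Rps6ka1, a kinase of the growth factor response, Rgs12, a regulator of G proteins, Gpnmb, Aspa, Cast, which encodes the inhibitor of calpain proteases, and Pde8b, a cyclic AMP phosphodiesterase with 3 overlapping windows. 4931408C20Rik and Gm12250 completed the set and are uncertain. In the list of antigen presentation and interferon genes used below, 30 genes had a window. Only 1 of them, Isg15, had a mature adult-only window, beside 0.0743% of all genes with a window. All 15 windows were open in at least 1 young adult library and 7 in all 3, a measure that did not define the class. Of the infant-only windows, 53.6% were open in no young adult library and 6.48% in all 3. Of all windows, 44.9% were open in none and 50.6% in all 3. The Isg15 window was open in all 3 young adult and all 3 mature adult libraries and in no infant library, with 1 peak assigned to the gene in each adult library and none in an infant library. Isg15 had too few peaks on average for the test of peak numbers. The mature adult-only class held 23 windows without infant replicate 1 and 61 with the widest peaks, which included all 15.

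A motif of interferon-stimulated response elements (GAAA, any 2 bases and again GAAA, on either strand, bound by Irf and Stat factors) was looked for in these windows after their genes had been seen. It was present in 4 of the 15 windows, those of Isg15, Ifi206, Ifi211 and Gm12250, and in 3.35% of all 21262 windows. It was not present in the other 11, Ifi209 included. The ETS core described above was in 9 of the 15, beside 24.8% of all windows. The 15 include 3 overlapping windows of Pde8b, so that they are not 15 separate promoters. The 250 bases before the start of transcription are shown for 3 of these genes with the motif in capitals. The Isg15 stretch is chr4:156200819-156201068, the Ifi206 stretch chr1:173491319-173491568 and the Ifi211 stretch chr1:173913047-173913296, all on the minus strand and written 5′ to 3′ along the gene (RefSeq, GRCm38.p6). The capitals of Isg15 join 3 overlapping matches.
Isg15: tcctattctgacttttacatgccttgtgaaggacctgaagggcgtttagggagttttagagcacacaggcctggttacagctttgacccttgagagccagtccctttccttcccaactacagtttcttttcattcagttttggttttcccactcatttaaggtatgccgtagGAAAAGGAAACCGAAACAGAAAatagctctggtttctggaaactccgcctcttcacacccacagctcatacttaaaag
Ifi206: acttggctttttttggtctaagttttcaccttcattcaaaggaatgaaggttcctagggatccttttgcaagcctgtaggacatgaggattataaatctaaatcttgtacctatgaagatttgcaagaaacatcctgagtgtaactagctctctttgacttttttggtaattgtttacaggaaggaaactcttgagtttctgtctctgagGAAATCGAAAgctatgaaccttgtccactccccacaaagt
Ifi211: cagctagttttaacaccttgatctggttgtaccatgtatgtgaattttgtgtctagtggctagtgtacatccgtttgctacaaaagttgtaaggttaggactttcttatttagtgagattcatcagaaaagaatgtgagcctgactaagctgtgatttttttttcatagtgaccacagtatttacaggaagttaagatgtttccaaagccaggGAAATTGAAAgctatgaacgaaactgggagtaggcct

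**Figure D2:**
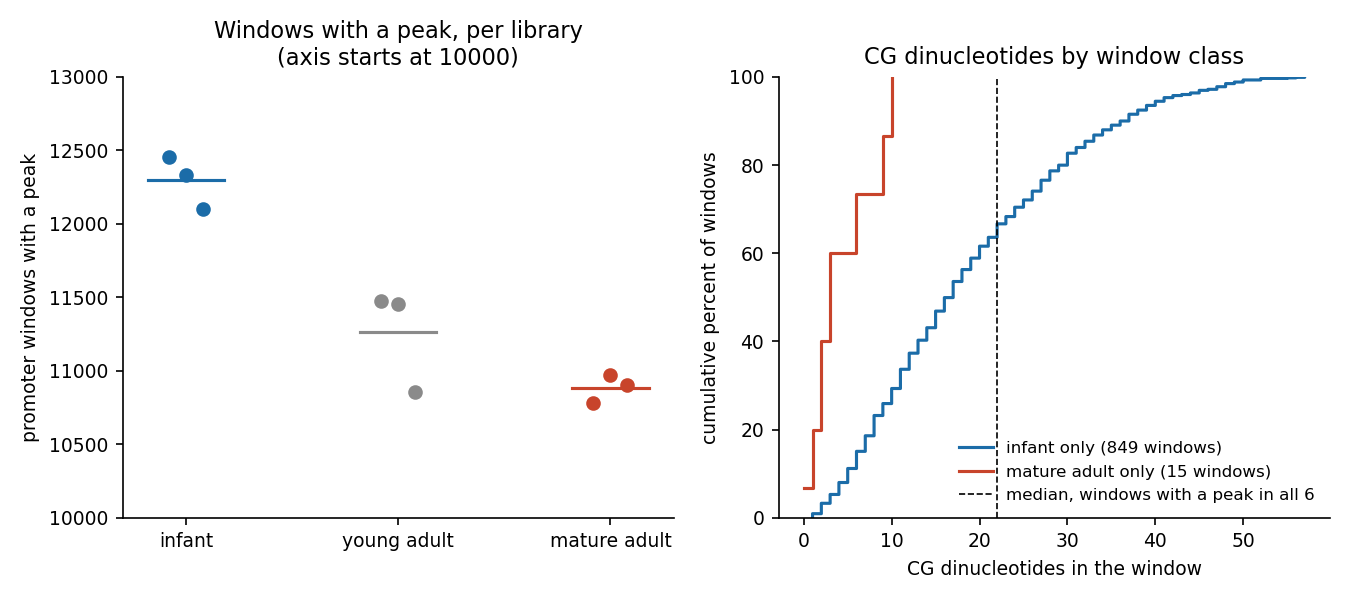
Left, promoter windows with a peak (vertical axis, which does not start at 0) in each library, with the mean of each age as a line; the infant libraries lie at 12104 to 12456 and the mature adult ones at 10779 to 10969. Right, cumulative percent of windows (vertical axis) by their number of CG dinucleotides (horizontal axis) for the infant-only and mature adult-only classes, with the median of windows open in all 6 libraries, 22, as a dashed line.

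The number of peaks per gene was then tested for the 14507 genes that averaged 1 peak or more over the 9 libraries. Because the infant lists were longer, the median gene had a log2 difference (mature adult minus infant) of 0.14 when numbers were scaled to the length of the list and of -0.31 when they were not. A gene is therefore said to have fewer or more peaks only where limma's adjusted p (Benjamini-Hochberg, threshold 0.05) passed in the same direction on both scales. By this rule 2013 genes (13.9%) had fewer and 206 (1.42%) more peaks in mature adults. With scaling alone the numbers were 2014 and 4416 (30.4% higher), and 2398 of those 4416 genes had a peak number that was identical in the 6 libraries. Without scaling they were 4249 and 206. With the equal number of widest peaks, 1065 of 13688 genes (7.78%) had fewer and 1227 (8.96%) more. Counts of list members with the widest peaks, given below, are to be read beside these shares. Of the 2013 genes, 1771 could be tested with the widest peaks; 815 were again lower and 2 higher. Of the 206 genes, 202 could be tested, 166 were again higher and none lower. In 215 of the genes with fewer peaks no mature adult library had any. The young adult mean lay between the other ages for 1407 of the 2013 genes with fewer peaks, at or beyond the mature adult mean for 584 and beyond the infant mean for 3, and equalled the infant mean for the rest. For genes with more peaks the same numbers were 128, 66 and 1 of 206. Below, a log2 difference is that of the scaled numbers with its standard error, n = 3 per age, and the adjusted p is the larger of the 2. In each gene named below as having fewer or more peaks the infant and mature adult numbers did not overlap, as was so for 5153 tested genes lower in mature adults (35.5%) and 255 higher (1.76%).

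The genes with the largest falls in peak number had many peaks in every library. Ptprm, a receptor phosphatase of cell contacts, had 129, 142 and 110 infant peaks and 34, 48 and 51 mature adult ones (log2 difference -0.98 ± 0.15, adjusted p = 0.00161). Its young adult libraries had 64, 73 and 59. Magi1, a scaffold of endothelial junctions, had 66, 63 and 56 infant peaks and 20, 21 and 20 mature adult ones (log2 difference -1.03 ± 0.12, adjusted p = 0.000384), and Mecom, a transcription factor of arterial endothelium and blood stem cells, 62, 52 and 54 infant peaks and 21, 18 and 19 mature adult ones (log2 difference -0.97 ± 0.08, adjusted p = 0.000119). In these 3 genes each mature adult library had fewer peaks than each young adult library, and each young adult library fewer than each infant library, but for a tie of Magi1 at 21. Rbms3, an RNA-binding protein, had 55, 48 and 52 infant peaks and 16, 14 and 14 mature adult ones (log2 difference -1.25 ± 0.08, adjusted p = 0.000119). Itga9, an integrin needed for lymphatic valves, had 45, 39 and 45 infant peaks and 13, 14 and 12 mature adult ones (log2 difference -1.15 ± 0.12, adjusted p = 0.000127). Nfia, a transcription factor of the nuclear factor I family, fell less, with 58, 58 and 57 infant peaks and 24, 31 and 29 mature adult ones (log2 difference -0.50 ± 0.08, adjusted p = 0.00208). Tenm4, a cell surface teneurin, had 41, 35 and 37 infant peaks and 10, 7 and 8 mature adult ones (log2 difference -1.59 ± 0.24, adjusted p = 0.00142). The other members of this set of 15 (Lrmda, St6galnac3, Wwox, Cacna1c, Rora, Ldlrad4, Prex2 and Snd1) had 40 to 82 peaks in infant and 12 to 46 in mature adult libraries, without overlap within a gene. The call of Lrmda was lost with the equal number of widest peaks (adjusted p = 0.582). The call of Rora was lost with the equal number of widest peaks (adjusted p = 0.0549). The set was ranked by the difference in peak number, which favours genes with many peaks.

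**Figure D3:**
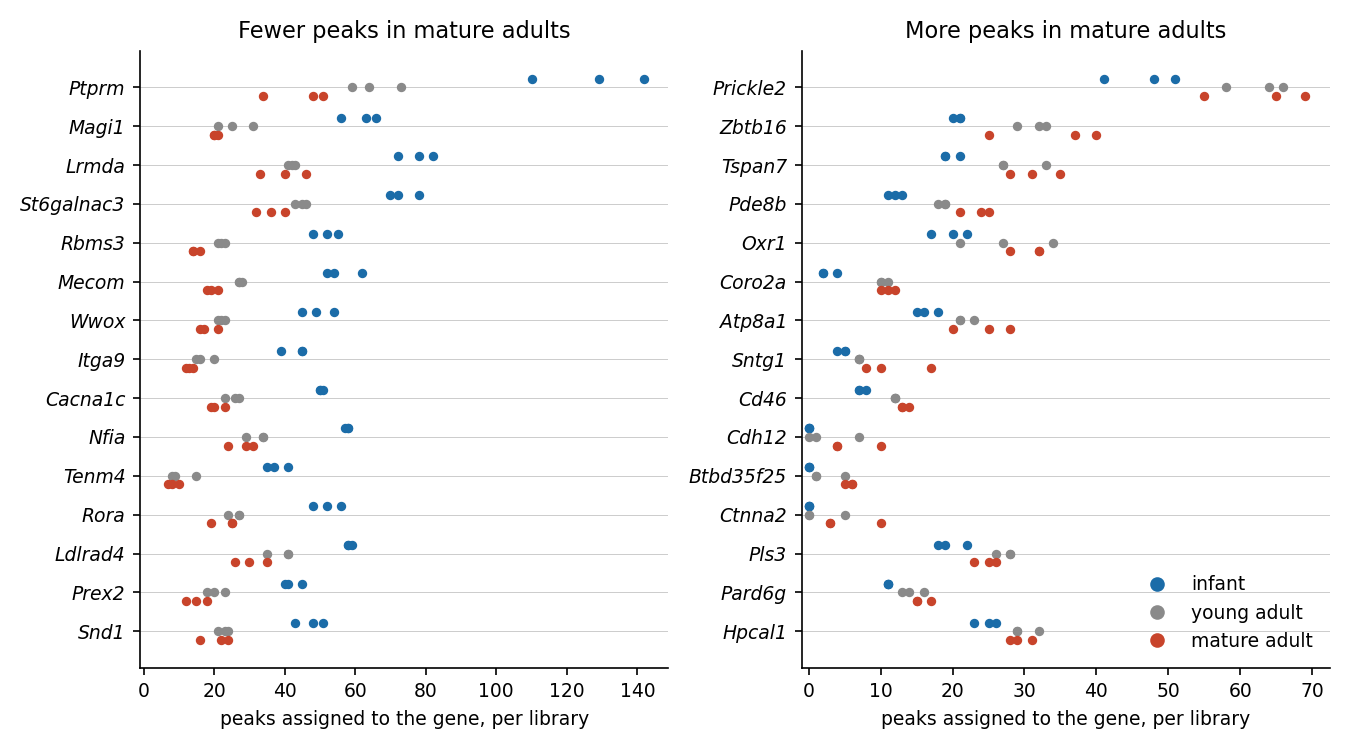
Peaks assigned to a gene in each library (horizontal axis) for the 15 genes with the largest fall and the 15 with the largest rise among called genes (rows). Each point is 1 library, coloured by age, with infant points at the top of a row and mature adult points at the bottom. Infant and mature adult points do not overlap in any row, as the choice of these genes requires.

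Genes of the extracellular matrix were among those with fewer peaks in mature adults. Of 16 collagen genes tested, 10 had fewer peaks and none more, a share of 62.5% beside the 13.9% of all tested genes, with a median log2 difference of -1.13 against 0.14 over all tested genes. Col5a1, which starts the assembly of collagen fibrils, had 24, 22 and 21 infant peaks and 3, 4 and 4 mature adult ones (log2 difference -1.95 ± 0.14, adjusted p = 0.000119) and 5, 6 and 4 in young adult libraries. Col14a1, a collagen on the surface of fibrils, had 22, 20 and 22 infant peaks and 7, 6 and 5 mature adult ones (log2 difference -1.24 ± 0.16, adjusted p = 0.000425). Col1a2 had 13, 14 and 14 infant peaks and 2, 2 and 3 mature adult ones (log2 difference -1.85 ± 0.16, adjusted p = 0.000119), so that even the highest mature adult value lay far below the lowest infant value. Col13a1, a transmembrane collagen, had 17, 19 and 16 infant peaks and 6, 9 and 6 mature adult ones (log2 difference -0.75 ± 0.23, adjusted p = 0.0311). The call of Col1a2 was lost with the equal number of widest peaks (adjusted p = 0.306). The call of Col13a1 was lost without infant replicates 1, 2 and 3 in turn or mature adult replicates 1 and 3 in turn (adjusted p from 0.0635 to 0.0942) and with the equal number of widest peaks (adjusted p = 0.0711). Col6a3, a chain of collagen VI named after its values were seen, had 7, 7 and 9 infant peaks and none in any adult library (adjusted p = 9.74e-07). Col5a2, Col5a3, Col3a1, Col11a1, Col12a1 and Col16a1 did not pass. Leaving out 1 library gave between 8 and 11 lower collagen genes, and the widest peaks gave 5 of 15.

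In the basement membrane, the sheet under endothelial cells, 9 of 22 genes (40.9%, beside 13.9% of all genes) had fewer peaks and none more. Lamb1, the beta 1 chain of most vascular laminins, had 13, 15 and 15 infant peaks and 1, 1 and 0 mature adult ones (log2 difference -3.42 ± 0.60, adjusted p = 0.00449). It also had 0, 1 and 0 peaks in the young adult libraries, so that the adults together had at most 1 per library. Col4a3, a collagen IV chain found with Col4a4 and Col4a5 in specialised membranes such as that of the alveolus, had 8, 10 and 12 infant peaks and 0, 1 and 1 mature adult ones (log2 difference -2.93 ± 0.46, adjusted p = 0.00268). Hspg2 (perlecan), a heparan sulfate proteoglycan, had 22, 17 and 17 infant peaks and 9, 9 and 8 mature adult ones (log2 difference -0.53 ± 0.14, adjusted p = 0.0208), and Lama4, the laminin chain typical of vessels, 18, 19 and 17 infant peaks and 9, 9 and 7 mature adult ones (log2 difference -0.55 ± 0.11, adjusted p = 0.00582). The call of Hspg2 was lost without infant replicate 1 or mature adult replicates 2 and 3 in turn (adjusted p from 0.0502 to 0.0714). The call of Lama4 was lost with the equal number of widest peaks (adjusted p = 0.0721). The main collagen IV genes were not called: Col4a1 had 32, 35 and 35 infant peaks and 24, 27 and 28 mature adult ones, and Col4a2 30, 27 and 29 against 23, 27 and 24. Of 20 genes of elastic fibres and crosslinking, 7 (35%, beside 13.9%) had fewer peaks and none more. Fbln1, a fibulin of elastic fibres, had 10 peaks in each infant library and 1 in each mature adult library (log2 difference -2.35 ± 0.19, adjusted p = 0.000119). Fbn1, fibrillin 1 of microfibrils, had 23, 22 and 19 infant peaks and 8, 10 and 8 mature adult ones (log2 difference -0.73 ± 0.11, adjusted p = 0.00106). The call of Fbn1 was lost with the equal number of widest peaks (adjusted p = 0.0682). Of 18 integrins, 5 (27.8%, beside 13.9%) had fewer peaks. That number fell to 2 without infant replicate 2 and to 3 without infant replicate 1 or mature adult replicate 1. Itgb3, the beta 3 subunit used by sprouting endothelium, had 7, 9 and 9 infant peaks and 2, 3 and 2 mature adult ones (log2 difference -1.16 ± 0.19, adjusted p = 0.00191).

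Markers of fibroblasts and mural cells moved with the matrix genes. Of the 18 markers 16 could be tested. Of these, 9 (56.25%, beside 13.9% of all tested genes) had fewer peaks and 1, Myh11, more (6.25%, beside 1.42%). With the widest peaks 2 of 13 had fewer and none more. Their summed peaks were 130, 126 and 129 in the infant, 54, 56 and 53 in the young adult and 50, 49 and 48 in the mature adult libraries. Pdgfra, the receptor that defines lung fibroblasts, had 17, 16 and 14 infant peaks and 10, 10 and 9 mature adult ones and was not called. Wt1, a transcription factor of mesothelium and stroma, had 11, 13 and 13 infant peaks and 4 in each mature adult library (log2 difference -1.0 ± 0.13, adjusted p = 0.000486). Cspg4, the pericyte marker NG2, had 9, 8 and 9 infant peaks and 3 in each mature adult library (log2 difference -0.89 ± 0.07, adjusted p = 0.000119), Col1a1 had 10, 9 and 8 infant peaks and 2, 1 and 2 mature adult ones (log2 difference -1.69 ± 0.28, adjusted p = 0.00239) and Pdgfrb, the receptor of pericytes, 5, 4 and 5 infant peaks and 1, 1 and 0 mature adult ones (log2 difference -1.92 ± 0.61, adjusted p = 0.0365). The call of Cspg4 was lost with the equal number of widest peaks (adjusted p = 0.148). The call of Col1a1 was lost with the equal number of widest peaks (adjusted p = 0.126) and with only peaks inside genes (adjusted p = 0.745). The call of Pdgfrb was lost without infant replicates 1, 2 and 3 in turn or mature adult replicate 3 (adjusted p from 0.073 to 0.0912), with the equal number of widest peaks (adjusted p = 0.259) and without both young adult replicate 3 and mature adult replicate 1 (adjusted p = 0.0585). Lum, a proteoglycan of fibroblasts, had no peak in any library and Dcn 1, 0 and 1 in infant and none in adult libraries. Myh11, of smooth muscle, had 7 peaks in each infant library and 8 in each mature adult library (adjusted p = 0.0317). The call of Myh11 was lost without infant replicates 1, 2 and 3 in turn or mature adult replicates 1, 2 and 3 in turn (adjusted p from 0.0743 to 0.0884), with the equal number of widest peaks (adjusted p = 0.0607), with rows counted as deposited (adjusted p = 1) and with only peaks inside genes (adjusted p = 1). In pools of sorted cells, fewer cells of a type and fewer open stretches per cell cannot be told apart, and the part of such cells in the differences of matrix genes was not tested. The collagen list and this list share Col1a1 and Col1a2.

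Epithelial markers had fewer peaks in sum in mature adults, and immune markers had few peaks at either age. Of 18 epithelial markers 10 could be tested and 1, Sftpb, had fewer peaks (10%, beside 13.9% of all tested genes). With rows counted as deposited 6 of 11 had fewer, and without the filter on low numbers 4 of 17. The summed peaks were 54 to 65 in infant and 27 to 32 in mature adult libraries. No infant library had a peak for 2 of the markers, and no mature adult library for 7. Sftpc had none in any library. Of 23 immune markers 7 could be tested and 1, Il2rb, had fewer peaks (14.3%, beside 13.9% of all tested genes). Their summed peaks were 22 to 24 in infant and 16 to 17 in mature adult libraries. The mean length of the whole lists was 31.6% lower in mature adults. The part of list length in the sums of both marker lists was not tested. Itgam, Itgax, Lyz2, Cd68, Cd3g, S100a8 and Nkg7 had no peak in any of the 9 libraries. Ptprc, the leukocyte antigen CD45, had 5, 5 and 4 infant peaks and 4 in each mature adult library. The call of Sftpb was lost without infant replicates 1 and 2 in turn or mature adult replicates 1 and 3 in turn (adjusted p from 0.0649 to 0.0782), with the equal number of widest peaks (adjusted p = 0.109) and without both young adult replicate 3 and mature adult replicate 1 (adjusted p = 0.069).

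Genes of fetal growth were lower as well: 9 of 21 tested (42.9%, beside 13.9% of all tested genes) had fewer peaks and none more. Igf1, insulin-like growth factor 1, had 16, 15 and 17 infant peaks and 2 in each mature adult library (log2 difference -2.23 ± 0.30, adjusted p = 0.00124). Hmga2 had 14, 13 and 16 infant peaks and 1, 3 and 1 mature adult ones (log2 difference -2.42 ± 0.35, adjusted p = 0.0022). Dlk1, an imprinted Notch-like surface protein, had 8 peaks in each infant library and 1, 1 and 2 mature adult ones (log2 difference -1.80 ± 0.33, adjusted p = 0.00406). For Igf2bp2, whose promoter is shown above, the adjusted p was 7e-06, and no fold is given because no mature adult library had a peak. In all 4 genes the highest mature adult value lay below the lowest infant value. Leaving out 1 library gave between 7 and 11 lower genes of this list.

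Of the 34 Wnt pathway genes tested, 12 (35.3%, beside 13.9% of all tested genes) had fewer peaks and none more. Among the ligands and receptors, Ror1, a co-receptor, had 23, 22 and 22 infant peaks and 9, 10 and 9 mature adult ones (log2 difference -0.69 ± 0.10, adjusted p = 0.000791). The ligand gene Wnt5a and the secreted inhibitor gene Sfrp1, named after their values were seen, had 8, 7 and 6 infant peaks for Wnt5a, 7, 7 and 5 for Sfrp1 and none in mature adults for either (adjusted p = 0.0032 and 1.34e-06). Among the inhibitors, Dkk2 had 18, 18 and 17 infant peaks and 4, 5 and 4 mature adult ones (log2 difference -1.40 ± 0.14, adjusted p = 0.000169). Among the transcription factors that carry the signal, Tcf7l1 had 28, 25 and 23 infant peaks and 9, 8 and 9 mature adult ones (log2 difference -0.96 ± 0.30, adjusted p = 0.0356) and Tcf7l2 32, 26 and 21 infant peaks and 5, 10 and 10 mature adult ones (log2 difference -1.12 ± 0.30, adjusted p = 0.0188). The call of Tcf7l1 was lost without infant replicates 1, 2 and 3 in turn or mature adult replicates 1, 2 and 3 in turn (adjusted p from 0.0684 to 0.0994). The call of Tcf7l2 was lost without infant replicates 1 and 2 in turn (adjusted p from 0.0531 to 0.068), with the equal number of widest peaks (adjusted p = 0.0703), with assignment within 10 kb (adjusted p = 0.0593) and with only peaks inside genes (adjusted p = 0.0754). Ctnnb1, beta-catenin itself, had 18, 17 and 16 infant peaks and 5, 5 and 7 mature adult ones (log2 difference -1.0 ± 0.18, adjusted p = 0.00326). The call of Ctnnb1 was lost with assignment within 10 kb (adjusted p = 0.102) and with only peaks inside genes (adjusted p = 0.521). Fzd4, the Norrin receptor of endothelium, had 11, 9 and 9 infant peaks and 6 in each mature adult library and Lrp5, its co-receptor, 17, 16 and 17 against 12, 15 and 14, and neither was called.

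In the TGF-beta and BMP pathway 10 of 35 genes (28.6%, beside 13.9% of all tested genes) had fewer peaks and none more. The widest peaks gave 6 lower and 4 higher. Tgfb2, a ligand, had 20, 19 and 20 infant peaks and 5, 9 and 5 mature adult ones (log2 difference -1.09 ± 0.20, adjusted p = 0.00331). The receptor gene Tgfbr2 had 27, 28 and 32 infant peaks and 14, 16 and 16 mature adult ones (log2 difference -0.36 ± 0.08, adjusted p = 0.0102). Smad3, which carries the signal to the nucleus, had 28, 22 and 25 infant peaks and 6, 7 and 9 mature adult ones (log2 difference -1.19 ± 0.24, adjusted p = 0.00532), and Ltbp1, which stores the ligand in the matrix, 34, 32 and 29 infant peaks and 17, 20 and 19 mature adult ones (log2 difference -0.21 ± 0.06, adjusted p = 0.0247). The call of Tgfbr2 was lost with assignment within 10 kb (adjusted p = 0.574) and with only peaks inside genes (adjusted p = 0.846). The call of Ltbp1 was lost without infant replicates 1 and 2 in turn or mature adult replicates 1 and 3 in turn (adjusted p from 0.0556 to 0.0791), with the equal number of widest peaks (adjusted p = 0.49) and with rows counted as deposited (adjusted p = 0.246). Of 21 Hippo pathway genes and targets, 6 (28.6%, beside 13.9%) had fewer and none more. With the widest peaks 3 of them were lower and 2 higher. Tead1, the transcription factor that Yap1 binds, had 29, 23 and 25 infant peaks and 6, 9 and 9 mature adult ones (log2 difference -1.11 ± 0.16, adjusted p = 0.00158). Ankrd1, a target gene of Yap1, had 10, 7 and 8 infant peaks and 1, 2 and 2 mature adult ones (log2 difference -1.58 ± 0.23, adjusted p = 0.00202) and the kinase gene Stk3 16, 16 and 17 infant peaks and 6, 7 and 7 mature adult ones (log2 difference -0.71 ± 0.12, adjusted p = 0.00195). The call of Ankrd1 was lost with the equal number of widest peaks (adjusted p = 0.148). The call of Stk3 was lost with the equal number of widest peaks (adjusted p = 0.219). Of 21 Notch pathway genes, 4 (19%, beside 13.9%) had fewer peaks, which fell to 2 without infant replicate 2 or 3. The widest peaks gave 1 lower and 3 higher. Notch2, a receptor, had 12, 10 and 13 infant peaks and 4, 4 and 6 mature adult ones (log2 difference -0.74 ± 0.17, adjusted p = 0.011), and Hes1, the target repressor, 31, 26 and 31 infant peaks and 12, 15 and 14 mature adult ones (log2 difference -0.54 ± 0.11, adjusted p = 0.00514). The call of Notch2 was lost with the equal number of widest peaks (adjusted p = 0.569). The call of Hes1 was lost with assignment within 10 kb (adjusted p = 0.409) and with only peaks inside genes (adjusted p = 0.899). With assignment within 10 kb and with only peaks inside the gene, the difference of Hes1 turned positive (log2 0.20 and 0.13).

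**Figure D4:**
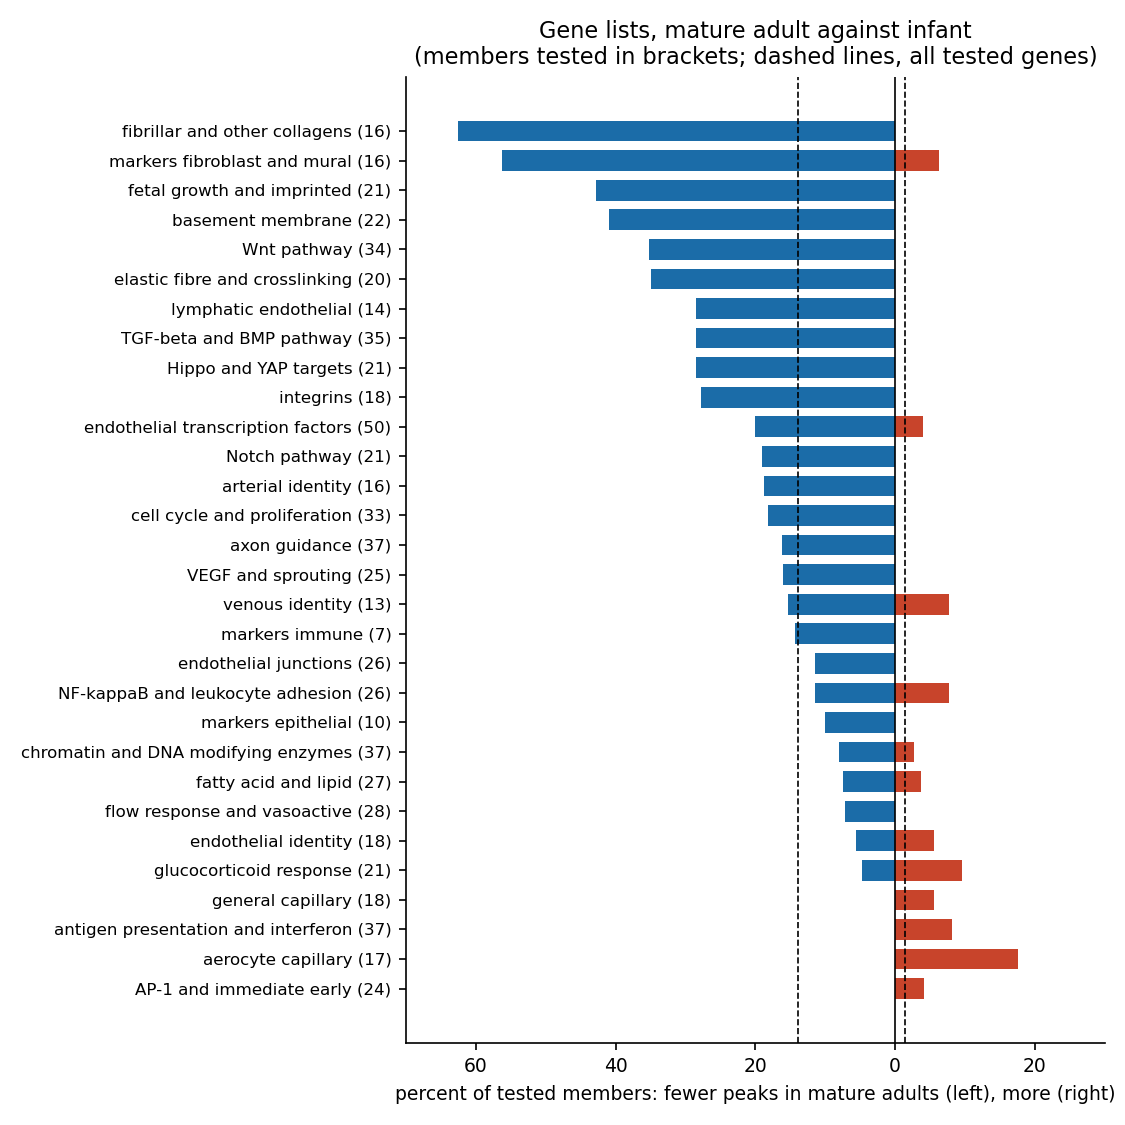
Percent of the tested members of each gene list (rows, number tested in brackets) with fewer peaks in mature adults (blue, to the left) or more (red, to the right) on both scales. Dashed lines mark the shares of all tested genes, 13.9% lower and 1.42% higher; collagens and fibroblast and mural markers reach farthest to the left, and 4 lists have no lower member.

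Few genes of VEGF signalling and sprouting passed on both scales. Of 25 tested, 4 had fewer peaks and none more, a share of 16% beside the 13.9% of all genes. The widest peaks gave 2 lower and 4 higher. Nrp2, the neuropilin of venous and lymphatic endothelium, had 21, 21 and 17 infant peaks and 6, 6 and 7 mature adult ones (log2 difference -1.03 ± 0.14, adjusted p = 0.000586). Cxcr4, the chemokine receptor of tip cells, had 16, 16 and 15 infant peaks and 7 in each mature adult library (log2 difference -0.58 ± 0.10, adjusted p = 0.00266). Igfbp3, a binding protein of insulin-like growth factors, had 6 peaks in each infant library and 1, 1 and 0 mature adult ones (log2 difference -2.25 ± 0.48, adjusted p = 0.00682). Pgf, placental growth factor, had 8, 7 and 6 infant peaks and 2, 1 and 3 mature adult ones (log2 difference -1.18 ± 0.30, adjusted p = 0.0152). The call of Cxcr4 was lost with the equal number of widest peaks (adjusted p = 0.0941), with rows counted as deposited (adjusted p = 0.141) and with assignment within 10 kb (adjusted p = 0.588). The call of Igfbp3 was lost with the equal number of widest peaks (adjusted p = 0.0837). The call of Pgf was lost without infant replicate 1 (adjusted p = 0.0529). The windows at the starts of Igfbp3 and Pgf were infant-only as well.

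The genes of the 3 VEGF receptors and of the ligand Vegfa did not pass on both scales. Kdr, VEGF receptor 2, had 36, 35 and 37 infant peaks and 27, 31 and 30 mature adult ones. Flt1, the decoy receptor, had 38, 42 and 36 against 33, 34 and 43, with the age groups overlapping. Flt4, VEGF receptor 3, had 12 peaks in each infant library and 11, 12 and 10 mature adult ones. The ligand gene Vegfa had 9, 12 and 9 against 8, 8 and 9. The tip cell genes Esm1 (4 peaks in each infant library and 3, 4 and 3 mature adult ones), Angpt2 (9, 8 and 10 against 7, 6 and 9), Apln (10, 10 and 11 against 11, 12 and 12) and Dll4 (6, 6 and 7 against 6 in each) were not called either. Pdgfb, which recruits pericytes, and Unc5b, a netrin receptor, were higher with the widest peaks alone (adjusted p = 0.0295 and 0.00079) and on the scaled numbers, and lower on the unscaled ones.

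Endothelial identity genes kept peaks in every library, as did most genes of several other lists. All 18 had a peak in each of the 6 libraries. So had 24 of 24 early response, 36 of 37 chromatin enzyme and 33 of 34 cell cycle genes, against 11 of 16 collagen genes and 6 of 23 immune markers. Of 18 identity genes 1 had fewer peaks (5.56%, beside 13.9% of all genes) and 1 more (5.56%, beside 1.42%), and 16 did not pass. Cdh5 (VE-cadherin, the adhesion protein of endothelial junctions) had 27, 31 and 27 infant peaks and 22, 24 and 26 mature adult ones and Pecam1 24, 23 and 23 against 21, 23 and 24. Both had a log2 difference above the median gene, 0.30 ± 0.09 for Cdh5 and 0.49 ± 0.05 for Pecam1, and both were higher with the widest peaks. With the widest peaks 7 of these genes were higher and none lower, a share of 38.9% beside 8.96% of all genes. Fli1, an ETS factor that maintains endothelium, was the gene with fewer peaks, 37, 34 and 30 infant peaks and 17, 18 and 18 mature adult ones (log2 difference -0.37 ± 0.08, adjusted p = 0.00749), while its partner Erg had 36, 32 and 28 against 22, 28 and 25 and was not called. Icam2, an adhesion molecule of resting endothelium, was the gene with more, 5, 6 and 6 infant peaks and 7 in each mature adult library (log2 difference 0.79 ± 0.11, adjusted p = 0.0427). The call of Fli1 was lost with the equal number of widest peaks (adjusted p = 0.357), with rows counted as deposited (adjusted p = 0.0751) and with only peaks inside genes (adjusted p = 0.771). The Icam2 call was lost under 13 alternatives. These include leaving out any 1 library (adjusted p from 0.0593 to 0.102), the widest peaks (adjusted p = 0.148) and rows counted as deposited (adjusted p = 0.254). It was also lost with assignment within 10 kb (adjusted p = 0.0513), with only peaks inside genes and in a fit of the 6 libraries alone (adjusted p = 0.0559). In the list of flow response genes 10 of 26 were higher with the widest peaks, and in that of endothelial transcription factors 12 of 50, where the call on both scales gave none and 2. Tie1, Tek, Emcn, Egfl7, Eng, Sox17, Sox7, Ptprb, Vwf, Cldn5, Robo4, Nos3 and Esam did not pass on both scales.

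Markers of endothelial subtypes were counted in the same way. Of 14 lymphatic genes 4 (28.6%, beside 13.9% of all tested genes) had fewer peaks and none more. Besides Itga9 and Nrp2, these were Mmrn1 and Tbx1, a T-box factor of lymphatic growth. Mmrn1 had 8, 8 and 6 infant peaks and 3, 4 and 2 mature adult ones (adjusted p = 0.0499). Tbx1 had 6, 6 and 7 infant peaks and 1, 2 and 2 mature adult ones (log2 difference -1.23 ± 0.33, adjusted p = 0.0193). The call of Tbx1 was lost without infant replicate 3 or mature adult replicate 1 (adjusted p from 0.0589 to 0.0597). The call of Mmrn1 was lost without infant replicates 1, 2 and 3 in turn or mature adult replicates 1 and 3 in turn (adjusted p from 0.0588 to 0.135), with the equal number of widest peaks (adjusted p = 0.84), with rows counted as deposited (adjusted p = 0.188), without the filter on low numbers (adjusted p = 0.0542), with assignment within 10 kb (adjusted p = 0.134), with only peaks inside genes (adjusted p = 0.165), in a fit of the 6 libraries alone (adjusted p = 0.063) and without both young adult replicate 3 and mature adult replicate 1 (adjusted p = 0.0985). The number fell to 2 without infant replicate 3, and with the widest peaks 3 of 13 were lower and 1 higher. Prox1, which specifies lymphatic cells, had 6, 5 and 7 against 3, 1 and 2 peaks and was not called, and Pdpn and Ccl21a had no peak in any library. Of 16 arterial genes 3 (18.8%, beside 13.9% of all tested genes) had fewer. Among them was Gja5 (connexin 40), with 11, 9 and 10 infant peaks and 5 in each mature adult library (log2 difference -0.42 ± 0.09, adjusted p = 0.00716). The call of Gja5 was lost with rows counted as deposited (adjusted p = 0.0984), with assignment within 10 kb (adjusted p = 0.214) and with only peaks inside genes (adjusted p = 0.214). Of 17 genes of aerocytes, the capillary cells specialised for gas exchange, none had fewer and 3 (17.6%, beside 1.42%) more: Fibin, Sirpa and Rprml. Rprml had 3 peaks in each infant library and 4, 5 and 5 mature adult ones (adjusted p = 0.0105), and Sirpa, a receptor that restrains phagocytes, 6 in each against 8, 10 and 8 (adjusted p = 0.024). The call of Rprml was lost with the equal number of widest peaks (adjusted p = 0.0575), with assignment within 10 kb (adjusted p = 0.259) and with only peaks inside genes (adjusted p = 1). The call of Sirpa was lost without infant replicates 1, 2 and 3 in turn or mature adult replicate 2 (adjusted p from 0.0506 to 0.0726), with rows counted as deposited (adjusted p = 0.481) and without both young adult replicate 3 and mature adult replicate 1 (adjusted p = 0.0643). The Fibin call (4, 5 and 5 against 7, 8 and 7 peaks) was lost on leaving out any of the 6 libraries, so that 1 or 2 aerocyte genes were higher in those fits. Car4, the carbonic anhydrase that marks aerocytes, had 6 peaks in each infant library and 5 in each mature adult library and was not called.

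Of 18 general capillary genes, which mark the cells that renew the capillary bed, none had fewer peaks and 1 (5.56%, beside 1.42%) more. This was Tspan7, a membrane tetraspanin, with 19, 19 and 21 infant peaks and 28, 31 and 35 mature adult ones (log2 difference 1.19 ± 0.11, adjusted p = 0.00612) and 33, 27 and 27 in young adult libraries. The call of Tspan7 was lost with rows counted as deposited (adjusted p = 0.0793). Gpihbp1, which carries lipoprotein lipase onto capillaries, had 5 peaks in each infant library and 4, 5 and 5 mature adult ones. Sema3c, a semaphorin of these cells, had 19, 26 and 21 infant peaks and 22, 36 and 40 mature adult ones, which overlapped, and passed only with the widest peaks (adjusted p = 0.00642).

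Genes with more peaks in mature adults were fewer, 1.42% of those tested. Pde8b, whose promoter windows were mature adult-only, had 11, 12 and 13 infant peaks and 21, 24 and 25 mature adult ones (log2 difference 1.46 ± 0.09, adjusted p = 0.000381) and 19, 18 and 19 in young adults. Coro2a, a coronin of the actin skeleton, had 4, 2 and 2 infant peaks and 10, 11 and 12 mature adult ones (log2 difference 2.40 ± 0.20, adjusted p = 0.00176) and 10, 11 and 10 in young adults. Pard6g, a polarity protein, had 11 peaks in each infant library and 15, 15 and 17 mature adult ones (log2 difference 1.02 ± 0.09, adjusted p = 0.00586). In these 3 genes all adult libraries exceeded all infant libraries, and no alternative ended the call. Cd46, a complement regulator, had 8, 7 and 7 infant peaks and 13, 13 and 14 mature adult ones (log2 difference 1.34 ± 0.06, adjusted p = 9.55e-05). The call of Cd46 was lost with assignment within 10 kb (adjusted p = 0.433) and with only peaks inside genes (adjusted p = 0.461). Zbtb16, the transcription factor PLZF and a known glucocorticoid target, had 21, 20 and 21 infant peaks and 25, 37 and 40 mature adult ones (log2 difference 1.21 ± 0.14, adjusted p = 0.0261). Prickle2, a planar polarity protein, had 51, 48 and 41 infant peaks and 55, 65 and 69 mature adult ones (log2 difference 0.97 ± 0.09, adjusted p = 0.0308). The call of Zbtb16 was lost without infant replicates 1, 2 and 3 in turn or mature adult replicates 2 and 3 in turn (adjusted p from 0.065 to 0.0793), with rows counted as deposited (adjusted p = 0.051) and in a fit of the 6 libraries alone (adjusted p = 0.0692). The call of Prickle2 was lost without infant replicates 2 and 3 in turn or mature adult replicates 2 and 3 in turn (adjusted p from 0.0733 to 0.0879), with rows counted as deposited (adjusted p = 0.182) and in a fit of the 6 libraries alone (adjusted p = 0.0734). Cdh12 and Ctnna2, genes of neuronal adhesion without a peak in any infant library, had 10, 4 and 4 and 10, 3 and 3 in the mature adult libraries, with replicate 1 far above the others. Both calls were lost on leaving out any 1 of the 6 libraries; without mature adult replicate 1 the adjusted p was 0.0915 and 0.133. Sntg1 was also led by mature adult replicate 1, with 17, 8 and 10 peaks against 5, 5 and 4 in infants. The call of Sntg1 was lost without infant replicate 3 (adjusted p = 0.0536) and in a fit of the 6 libraries alone (adjusted p = 0.0535). Oxr1, Atp8a1, Pls3 and Hpcal1 lost the call without at least 3 of the 6 libraries in turn, and Btbd35f25, of a multi-copy family, is uncertain.

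Of 37 antigen presentation and interferon genes, 3 (8.11%, beside 1.42% of all tested genes) had more peaks and none fewer. With the widest peaks 10 were higher and 1 lower, where 8.96% of all genes were higher and 7.78% lower. Psmb9, a subunit of the immunoproteasome that cuts peptides for display, had none in the infant libraries, 1, 1 and 2 in young adults and 2 in each mature adult library (adjusted p = 0.00029). B2m, the light chain of MHC class I, had 1 peak in each infant library and 2 in each mature adult library (adjusted p = 0.0293). Gbp7, a GTPase induced by interferon, had 2 peaks in each infant library and 3 in each mature adult library (adjusted p = 0.0293). The call of B2m was lost without infant replicates 1, 2 and 3 in turn or mature adult replicates 1, 2 and 3 in turn (adjusted p from 0.0706 to 0.0833) and with rows counted as deposited (adjusted p = 0.371). The call of Gbp7 was lost without infant replicates 1, 2 and 3 in turn or mature adult replicates 1, 2 and 3 in turn (adjusted p from 0.0706 to 0.0833), with rows counted as deposited (adjusted p = 0.362) and with only peaks inside genes (adjusted p = 1). The rises of B2m and Gbp7 are of about 1 peak per library. Tap1, which shares a promoter region with Psmb9 and carries peptides into the endoplasmic reticulum, had 1 peak in each infant library and none in mature adults, with too few peaks for the test. The peaks of these neighbours can be given to one gene or to the other. The transcription factor gene Irf1 (14, 15 and 12 against 14, 15 and 15) did not pass.

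Of 50 endothelial transcription factors 10 (20%, beside 13.9%) had fewer peaks and 2 more. Leaving out 1 library gave 6 (without infant replicate 3) to 9 lower and 0 to 1 higher, and the widest peaks gave 9 lower and 12 higher. Mecom, Nfia and Fli1, described above, were among those with fewer. Foxf2, a forkhead factor named after its values were seen, had 8, 9 and 9 infant peaks and 0, 2 and 0 mature adult ones (log2 difference -3.08 ± 0.69, adjusted p = 0.012). Sox18, of early vessel growth, was higher by 1 peak, with 4 peaks in each infant library and 5 in each mature adult library (adjusted p = 0.0299), a call that changed sign with only peaks inside genes (log2 difference -0.077). The call of Sox18 was lost without infant replicates 1, 2 and 3 in turn or mature adult replicates 1, 2 and 3 in turn (adjusted p from 0.0716 to 0.084), with rows counted as deposited (adjusted p = 0.235), with only peaks inside genes (adjusted p = 0.857) and without both young adult replicate 3 and mature adult replicate 1 (adjusted p = 0.0799). Foxf1, needed for lung vessels, had 20, 16 and 13 against 12, 16 and 13 peaks and Gata2 10 in each of the 6 libraries, and neither was called.

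Of 37 axon guidance genes, whose products also steer vessels, 6 had fewer peaks and none more, a share of 16.2% beside 13.9%. Here the widest peaks gave 5 lower and 8 higher, so that the balance turned, as it did over all genes (7.78% lower and 8.96% higher). The receptor genes Ephb1 and Ephb2 were among them: Ephb1 had 19, 19 and 16 infant peaks and 5, 4 and 4 mature adult ones (log2 difference -1.42 ± 0.16, adjusted p = 0.000228), and Ephb2 13, 11 and 7 infant peaks and none in a mature adult library (adjusted p = 0.00677). The venous receptor gene Ephb4 had 6, 7 and 6 against 4, 5 and 5 peaks and its arterial ligand gene Efnb2 16, 19 and 16 against 13, 14 and 16, and neither was called. Of 13 venous genes 2 (15.4%, beside 13.9%) had fewer peaks and 1 (7.69%, beside 1.42%) more. Nr2f2 (COUP-TFII), the factor of venous identity, had 15, 14 and 13 infant peaks and 3, 7 and 6 mature adult ones (log2 difference -0.87 ± 0.26, adjusted p = 0.0287). Lrg1, a modulator of TGF-beta signals, had 2, 1 and 2 infant peaks and 3, 4 and 4 mature adult ones (log2 difference 1.41 ± 0.19, adjusted p = 0.0171). The call of Nr2f2 was lost without infant replicates 1, 2 and 3 in turn (adjusted p from 0.0617 to 0.0812), with the equal number of widest peaks (adjusted p = 0.069), with assignment within 10 kb (adjusted p = 0.294), with only peaks inside genes (adjusted p = 0.862) and in a fit of the 6 libraries alone (adjusted p = 0.0501). The call of Lrg1 was lost without mature adult replicates 2 and 3 in turn (adjusted p from 0.0518 to 0.0544), with rows counted as deposited (adjusted p = 0.0672), with only peaks inside genes (adjusted p = 0.0519) and in a fit of the 6 libraries alone (adjusted p = 0.0556). With only peaks inside genes the difference of Nr2f2 was 0.073. Of 28 flow response genes 2 (7.14%, beside 13.9%) had fewer, Kcnj2 and Ptgs2. The call of Kcnj2 was lost with assignment within 10 kb (adjusted p = 0.0972) and with only peaks inside genes (adjusted p = 0.483). The call of Ptgs2 was lost without infant replicates 1, 2 and 3 in turn or mature adult replicates 2 and 3 in turn (adjusted p from 0.06 to 0.119). The flow-induced factor gene Klf2 had 8 peaks in each infant library and 8, 9 and 10 mature adult ones and was not called. Of 26 junction genes 3 (11.5%, beside 13.9%) had fewer, Magi1, Gja5 and Ctnnb1. Of 21 glucocorticoid response genes 2 (9.52%, beside 1.42%) had more, Zbtb16 and Tsc22d3, and 1 (4.76%, beside 13.9%) fewer, Klf15. The call of Klf15 was lost without infant replicates 2 and 3 in turn or mature adult replicate 1 (adjusted p from 0.0659 to 0.0697), with assignment within 10 kb (adjusted p = 0.918) and with only peaks inside genes (adjusted p = 0.917). Tsc22d3 (GILZ) had 11, 10 and 10 infant peaks and 12, 14 and 13 mature adult ones (log2 difference 0.84 ± 0.07, adjusted p = 0.0244). The call of Tsc22d3 was lost without infant replicates 2 and 3 in turn or mature adult replicates 2 and 3 in turn (adjusted p from 0.0636 to 0.0792), with rows counted as deposited (adjusted p = 0.823) and with assignment within 10 kb (adjusted p = 0.0637).

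Among the other lists, none of the 24 AP-1 and immediate early genes had fewer peaks and 1 (4.17%, beside 1.42%) had more. This was Nr4a2, an orphan nuclear receptor, with 4, 4 and 5 infant peaks and 6 in each mature adult library (adjusted p = 0.00729). The call of Nr4a2 was lost with rows counted as deposited (adjusted p = 0.564). Fos, with 16, 18 and 19 against 12, 13 and 11, and Jun, with 13, 13 and 14 against 14, 17 and 16, did not pass. In the NF-kappaB and adhesion list 3 of 26 (11.5%, beside 13.9%) had fewer and 2 (7.69%, beside 1.42%) more. Leaving out 1 library gave 1 (without infant replicate 2) to 3 lower and 1 higher, and the widest peaks gave 2 lower and 6 higher. Selplg, the ligand of P-selectin, had 3, 2 and 4 infant peaks and none in mature adults (adjusted p = 0.00185), and Tlr4, the receptor of bacterial lipopolysaccharide, had 3, 2 and 2 infant peaks and 7, 5 and 5 mature adult ones (log2 difference 1.60 ± 0.21, adjusted p = 0.00916). Of 33 cell cycle genes 6 had fewer peaks and none more, a share of 18.2% beside 13.9%; with the widest peaks 4 were lower and 5 higher. Mki67 had 11, 10 and 12 infant peaks and 4, 5 and 3 mature adult ones (log2 difference -0.87 ± 0.17, adjusted p = 0.00482). The call of Mki67 was lost with the equal number of widest peaks (adjusted p = 0.06), with rows counted as deposited (adjusted p = 0.0657), with assignment within 10 kb (adjusted p = 0.422) and with only peaks inside genes (adjusted p = 0.089). Of 37 chromatin enzyme genes 3 (8.11%, beside 13.9%) had fewer and 1 (2.70%, beside 1.42%) more. Crebbp, an acetyltransferase of enhancers, had 8, 10 and 6 infant peaks and 2 in each mature adult library (log2 difference -1.26 ± 0.18, adjusted p = 0.001). Kdm6b, a demethylase of the Polycomb mark, had 4, 4 and 5 infant peaks and 7, 7 and 8 mature adult ones (log2 difference 1.20 ± 0.13, adjusted p = 0.00782). The call of Kdm6b was lost with rows counted as deposited (adjusted p = 1). In the fatty acid list 2 of 27 (7.41%, beside 13.9%) had fewer and 1 (3.70%, beside 1.42%) more. Vldlr, a lipoprotein receptor, had 12, 10 and 12 infant peaks and 1, 1 and 3 mature adult ones (log2 difference -2.10 ± 0.33, adjusted p = 0.00244). The call of Vldlr was lost with assignment within 10 kb (adjusted p = 0.0581) and with only peaks inside genes (adjusted p = 0.0589). Leaving out 1 library gave 0 to 2 lower and 0 to 1 higher venous genes, 0 to 1 lower and 0 to 2 higher glucocorticoid genes, and 1 (without mature adult replicate 3) to 4 lower chromatin enzyme genes. With the widest peaks 8.96% of all genes were higher and 7.78% lower. More genes were likewise higher than lower in the junction (5 and 3), glucocorticoid (7 and 2) and chromatin (6 and 2) lists. The same held for the fatty acid (4 and 3), early response (4 and 1) and venous (2 and 0) lists. It also held for the general capillary (5 and 1) and aerocyte (8 and 0) lists.

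Merging the peaks of the 6 libraries that overlapped by at least 1 bp gave 119216 regions. Of these 42934 (36.0%) had a peak in all 6 libraries, 18341 (15.4%) in all 3 infant and no mature adult library, and 1624 (1.36%) in all 3 mature adult and no infant library. With the widest peaks alone the last 2 numbers were 7457 and 4927, and without mature adult replicate 1 the mature adult-only number was 2661. Infant-only regions made up 9.86% of the regions within 1 kb of a gene end and 17.4% of those over 100 kb away. Their median width was 456 bp, against 385 bp for mature adult-only and 848 bp for shared regions. Of the mature adult-only regions 65.1% lay inside genes, against 52.0% of the infant-only regions. In regions shared by all 6 libraries the median peak width was 760, 728 and 714 bp in infant and 555, 628 and 623 bp in mature adult libraries.

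The young adult libraries did not define these classes and were nearer to the mature adults in both. Of the infant-only regions 67.1% had no peak in any young adult library and 4.20% had one in all 3. Of the mature adult-only regions 9.05% had none and 54.7% had one in all 3. Of all regions 39.7% had none and 42.3% had one in all 3. The young adult lists, of 67550 to 68366 peaks, were also nearer in length to the mature adult lists, and the part of list length was not tested.

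**Figure D5:**
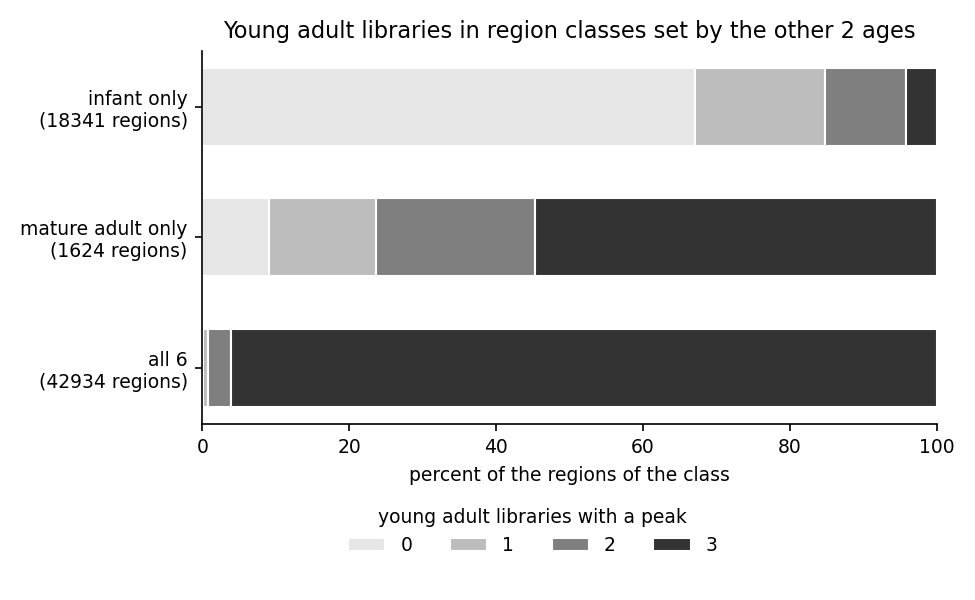
Percent of the regions of each class (horizontal axis) by the number of young adult libraries with a peak there (shades from 0 to 3), for regions found in all 3 infant libraries only, in all 3 mature adult libraries only, or in all 6. No young adult library has a peak in 67.1% of the infant-only regions, and all 3 do in 54.7% of the mature adult-only and 96.0% of the shared regions.

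Infant-only regions were ranked by the mean rank of their width. The first lay inside Fbn2, fibrillin 2 of developing elastic fibres, 437 bp from a gene end, and had no peak in any young adult library. Another lay inside Vldlr, 1098 bp from a gene end (chromosome 19, 27216782 to 27218374, mm10), with a peak in 2 young adult libraries. A further one lay inside P3h2, a collagen prolyl hydroxylase, 13 bp from a gene end (chromosome 16, 26104950 to 26106650), with a peak in all 3 young adult libraries. Regions inside Auts2, Mapk4 and Rad51b, near Mcur1 and far from any gene on chromosome 13 completed this set of 8. The mature adult-only regions named by the same rule all had a peak in all 3 young adult libraries. They lay inside Aff3 (chromosome 1, 38320201 to 38321286), Syne1 (chromosome 10, 5152464 to 5153486), Snx25 (chromosome 8, 46082661 to 46083715) and Man2a1 (chromosome 17, 64746278 to 64747178), and 78178 bp from an end of Pdgfd, a platelet-derived growth factor (chromosome 9, 6089722 to 6090649). The other 3 lay far from genes on chromosomes 14 and X and inside Speer2, a multi-copy gene that is uncertain.

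Counted per gene, 3013 genes had at least 10 regions, and the median share of infant-only regions among them was 13.3%. It was highest in Fbln1, where 8 of 10 regions were infant-only. In Tbx5, a transcription factor of lung mesenchyme and heart (chromosome 5, 119796514 to 119885220), it was 10 of 14. Tbx5 had 13, 13 and 11 infant peaks, 1, 1 and 2 young adult ones and none in a mature adult library (adjusted p = 1.27e-05). In Tnc, tenascin C of developing matrix (chromosome 4, 63959785 to 64047015), 9 of 13 regions were infant-only, with 13, 12 and 12 infant peaks and 3, 4 and 3 mature adult ones (log2 difference -1.25 ± 0.32, adjusted p = 0.0159). In Kcnd3, a potassium channel, the count was 7 of 10, in Esrrb, an orphan nuclear receptor, 8 of 12, in Fzd10, a Wnt receptor, 8 of 12, in Prdm8 8 of 11 and in Arhgef10l 10 of 15. Mature adult-only regions made up at most 50% of a gene's regions, in Coro2a with 6 of 12 (chromosome 4, 46536937 to 46601929). Lpl, the lipoprotein lipase that frees fatty acids at capillaries (chromosome 8, 68880555 to 68906932), followed with 3 of 11, ahead of 1700057G04Rik, which is uncertain, with 3 of 13, Rab31 with 5 of 22 and Gbe1, the glycogen branching enzyme, with 3 of 15. Lpl had 5, 7 and 4 infant peaks and 9, 7 and 8 mature adult ones and was not called on both scales (adjusted p = 0.0682), but was higher with the widest peaks (adjusted p = 0.0107). These shares use the same peaks as the numbers per gene and are no separate evidence.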

How the data were processed

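Chromatin accessibility was measured by ATAC-seq in 3 infant, 3 young adult and 3 mature adult libraries of sorted mouse lung endothelial cells. The authors deposited 1 peak list per library, with a chromosome, start and end per row and no score, count or coverage, per the file headers. Whether starts count from 0 or 1 is not stated. The submitters' processing notes name cutadapt, Bowtie2, Picard and the mm10 build. How peaks were called, at which threshold and with which read shift is not stated in the labels or notes used here, and depth per library is unknown.

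Distinct intervals were counted once (Python 3.11.15, pandas 2.3.3, numpy 2.4.6, scipy 1.17.1) and assigned to 21883 RefSeq protein-coding genes (GRCm38.p6, the mm10 assembly). The log2 of the peak number plus 0.5 was fitted for all 9 libraries together with limma 3.58.1 (R 4.3.3, trend), for the 14507 genes that averaged 1 peak or more. The fit was run on numbers scaled to list length and on unscaled ones, and a gene was called at a Benjamini-Hochberg adjusted p under 0.05 on both. It was repeated with the 59793 widest peaks of each library, the length of the shortest list. The procedure was first tested on simulated data. It recovered 55.3% of falls to 0.25 of the infant level and 42% of falls to 0.5. Of rises to 2 and 4 times that level it recovered 52% and 98%. Of all calls in the simulation 2.4% were false. Many true falls can thus be missed. Library totals were compared by exact permutation tests.

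Named genes were, by a written rule, the 15 per direction with the largest difference in mean peak number, up to 4 called members per list and direction, all members of the endothelial identity and VEGF lists, and the regions and genes ranked highest by width or by share of regions of a class. Promoter windows were named for list members and for the widest of a class. Members that were not called and are given as a contrast, the interferon motif, and Col6a3, Sfrp1, Wnt5a, Foxf2, Pdgfrb, Ifi209 and Phyhd1 were chosen after their values were seen. The comparison, the lists and the tests were chosen with earlier results of these data known. Figures were drawn with matplotlib 3.10.9.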

Additional observations from a re-analysis of the deposited data

How the results depend on the processing

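The lower peak number, covered length and promoter count of mature adults kept their direction under every alternative run. The difference in peak number (mature adult minus infant) was -52294 with rows counted as deposited, and with the widest peaks the differences were -10.9 Mb in covered length, -0.123 percentage points in peaks within 1 kb of a gene end (a turn of sign) and -940 promoter windows. Genes with fewer peaks numbered 4249 on unscaled numbers alone, 1065 with the widest peaks, 1050 among genes averaging 3 peaks or more and 1286 with only peaks inside genes. Genes with more peaks numbered 4416 on scaled numbers alone, 1227 with the widest peaks and 115 among genes averaging 3 or more. Leaving out 1 library gave 1485 to 1833 genes with fewer and 137 (without infant replicate 2) to 185 with more, and with the widest peaks 650 to 797 and 783 to 941. Leaving out both young adult replicate 3 and mature adult replicate 1 gave 251 genes with more peaks, and with the widest peaks 964 with fewer and 1091 with more. Infant-only regions numbered 7457 with the widest peaks, 28485 when 2 of 3 libraries sufficed and 19221 to 24021 without 1 library; mature adult-only regions 4927, 3252 and 1823 to 2661. Mature adult-only promoter windows numbered 61, 24 and 15 to 23, alternatives that were chosen after seeing the data, as were those of the gene lists.

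Of 132 named called genes, 52 kept the call under every one of 17 alternatives that gave a value (scaled or unscaled numbers alone, which a call on both scales passes by construction, are left out); of 2197 values 1840 kept the call, 345 lost it and 12 changed sign. With assignment within 10 kb the log2 difference turned to 0.20 for Hes1, 0.0095 for Rbpj, 0.18 for Mki67 and 0.022 for Klf15. With only peaks inside a gene it turned to 0.13 for Hes1, 0.088 for Rbpj, 0.025 for Tgfbr2, 0.073 for Nr2f2, -0.077 for Sox18, 0.022 for Klf15, 0.36 for Tcf15 and 0.32 for Prdm8. Both alternatives leave out peaks, and the cause of each turn was not tested further. Replicate numbers did not pair the libraries: deviations of same-numbered infant and mature adult libraries correlated at -0.01, 0.03 and -0.01, and a replicate block gave 1893 genes with fewer and 146 with more peaks (734 and 852 with the widest peaks). With the replicate block 24 of the 132 named called genes lost the call, a loss that is not listed beside each gene above. Among them were Zbtb16, Prickle2, Cdh12, Ctnna2, Icam2, Fibin, Sirpa, Mmrn1, Sox18, Ptgs2, Klf15, Tsc22d3, B2m, Gbp7, Myh11 and Pdgfrb. A gene that was not called is not shown to be unchanged.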
